A study of Mus musculus with 8 samples.

Results

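The genes described here encode the MHC class II antigen presentation machinery of the mouse. The group holds 10 of the 22911 named genes on the array: the chains H2-Aa, H2-Ab1 and H2-Eb1, the invariant chain Cd74, the peptide-loading chains H2-DMa, H2-DMb1 and H2-DMb2, the H2-O chains H2-Oa and H2-Ob, and the transactivator Ciita. They were chosen by name, through the RefSeq accession that the scanner files give for each probe. All 10 had at least 1 probe, 15 probes in all, and every probe passed the filter on low signals. H2-Ab1 had 4 probes, H2-Ob and Ciita had 2 each and the other members had 1. For a gene with several probes, the brightest stands for it.

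Lung RNA of 8 female BALB/c mice was hybridized to single-color Agilent arrays, 1 mouse per array, with 2 mice in each of 4 groups. All mice arrived at 4 weeks of age, were housed for 2 weeks and were then fed for 70 days. The NT mice had the standard feed and met no ovalbumin (OVA). Mice of the other groups were sensitized by intraperitoneal OVA with aluminum on Days 42, 49 and 56, inhaled OVA aerosol from Day 63 to Day 69, and were sampled 24 h after the last inhalation, on Day 70. Of these challenged groups, Ctrl-F had the standard feed, Cap-F a feed with carbonate apatite particles that carried no oligonucleotide, and ODNcap-F a feed with the same kind of particles loaded with the class B CpG oligodeoxynucleotide MsST. The comparisons ask how allergen exposure and the feeds bear on the lung. Exposure and sensitization were given together, so NT differs from the challenged groups in both. With 2 mice per group, the number of arrays limits the precision, and an exact two-sided permutation test of 1 gene between 2 groups cannot go below 0.333.

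Class II molecules carry peptides from engulfed proteins to the surface of dendritic cells, B cells and macrophages, where CD4 T cells read them. An alpha and a beta chain pair in the endoplasmic reticulum, I-A from H2-Aa and H2-Ab1, and I-E from H2-Eb1 with its alpha partner. The invariant chain, Cd74, fills the groove until lysosomal proteases trim it, and the H2-M dimer of H2-DMa with H2-DMb1 or H2-DMb2 then exchanges its remnant for antigen peptides. H2-O, made of H2-Oa and H2-Ob and best known from B cells, restrains H2-M. Transcription of these genes rests on CIITA, a coactivator that does not bind DNA itself but docks on the factors that occupy the X and Y boxes of class II promoters. In the lung, alveolar type 2 cells also carry class II.

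In the RefSeq table of assembly GRCm38.p6, the 8 H2 members lie on chromosome 17, from the start of H2-Oa at 34092379 to the end of H2-Eb1 at 34316674. Ciita lies on chromosome 16, from 10480014 to 10531064. The promoter table of RefSeq, which spans 250 bases before to 50 bases after an annotated start, holds entries for 7 members and none for H2-Ab1, Cd74 and Ciita. For H2-DMa and H2-DMb2 the annotated starts lie inside the gene, downstream of its first base. The sequences below show the elements known to drive class II promoters. Each is 55 bases of the gene's own strand, written 5′ to 3′ from the C57BL/6J reference genome, while the mice were BALB/c. Capitals mark GATTGG, the core of the Y box (a reversed CCAAT box), and AACNNATG, letters of the X box, where they occur upstream of it.
H2-Aa: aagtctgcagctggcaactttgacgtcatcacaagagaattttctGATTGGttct
H2-Eb1: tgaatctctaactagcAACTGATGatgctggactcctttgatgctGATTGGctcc
H2-DMb1: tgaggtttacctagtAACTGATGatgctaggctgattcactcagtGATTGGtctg
H2-DMb2: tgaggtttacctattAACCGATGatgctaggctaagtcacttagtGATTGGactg
H2-Oa: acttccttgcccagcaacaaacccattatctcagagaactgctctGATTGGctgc
H2-Ob: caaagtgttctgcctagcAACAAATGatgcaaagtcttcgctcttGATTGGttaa

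The windows are chr17:34287863-34287917 on the minus strand for H2-Aa and, on the plus strand, chr17:34305762-34305816 for H2-Eb1, chr17:34153084-34153138 for H2-DMb1, chr17:34145113-34145167 for H2-DMb2, chr17:34092290-34092344 for H2-Oa and chr17:34238802-34238856 for H2-Ob. GATTGG began 49 bases before the annotated start in H2-Aa, 60 in H2-Eb1, 62 in H2-DMb1, 91 in H2-DMb2, 44 in H2-Oa and 58 in H2-Ob. In H2-Eb1, H2-DMb1, H2-DMb2 and H2-Ob, AACNNATG stood on the same strand with its start 29, 30, 30 and 27 bases upstream of that of GATTGG. H2-DMa had 2 promoter entries, 1 with neither motif and 1 with GATTGG 199 bases before the start. Searched on both strands, GATTGG occurred in 16.1% of 32851 promoters of the table and AACNNATG in 8.86%. Both on 1 strand, with starts 25 to 35 bases apart, occurred in 12 promoters (0.0365%), 4 of them of members. The motif letters do not overlap and were chosen after the sequences had been seen, and a match describes letters, not binding.

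After OVA exposure all 10 members rose, under each of the 3 feeds. Values are log2 intensities after quantile normalization over the 8 arrays, and a gene was called where the Benjamini-Hochberg adjusted p of limma over 37116 probes was under 0.05. Triplets of values below are for Ctrl-F, Cap-F and ODNcap-F, each against NT. The median log2 fold change of the members was 1.37, 1.55 and 1.36, where the median over all probes was -0.0963, -0.103 and -0.11. Fold changes ran from 1.61 to 5.42 in Ctrl-F, from 1.67 to 6.72 with Cap-F and from 1.59 to 5.02 with ODNcap-F. Adjusted p-values in limma lay between 0.00023 and 0.00474, between 0.000185 and 0.00189, and between 0.000311 and 0.00455. Challenge moved much of the transcriptome, so the background is large: of all probes, 26.5%, 24% and 25.2% were called higher and 34.5%, 31.9% and 33.8% lower. With a fold change over 2 required as well, 8, 8 and 7 members were called, against 10.4%, 9.53% and 9.66% of all probes. In every member, all 6 challenged mice lay above both NT mice, as they did in 29.1% of all probes. These 3 comparisons share the NT mice. P-values measure the spread between mice, and the slide held NT and Ctrl-F in its row 1 and both particle feeds in its row 2, so that row and group cannot be told apart where a comparison crosses the rows. Whole-lung RNA does not separate more class II-bearing cells from more class II RNA per cell.

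**Figure D1:**
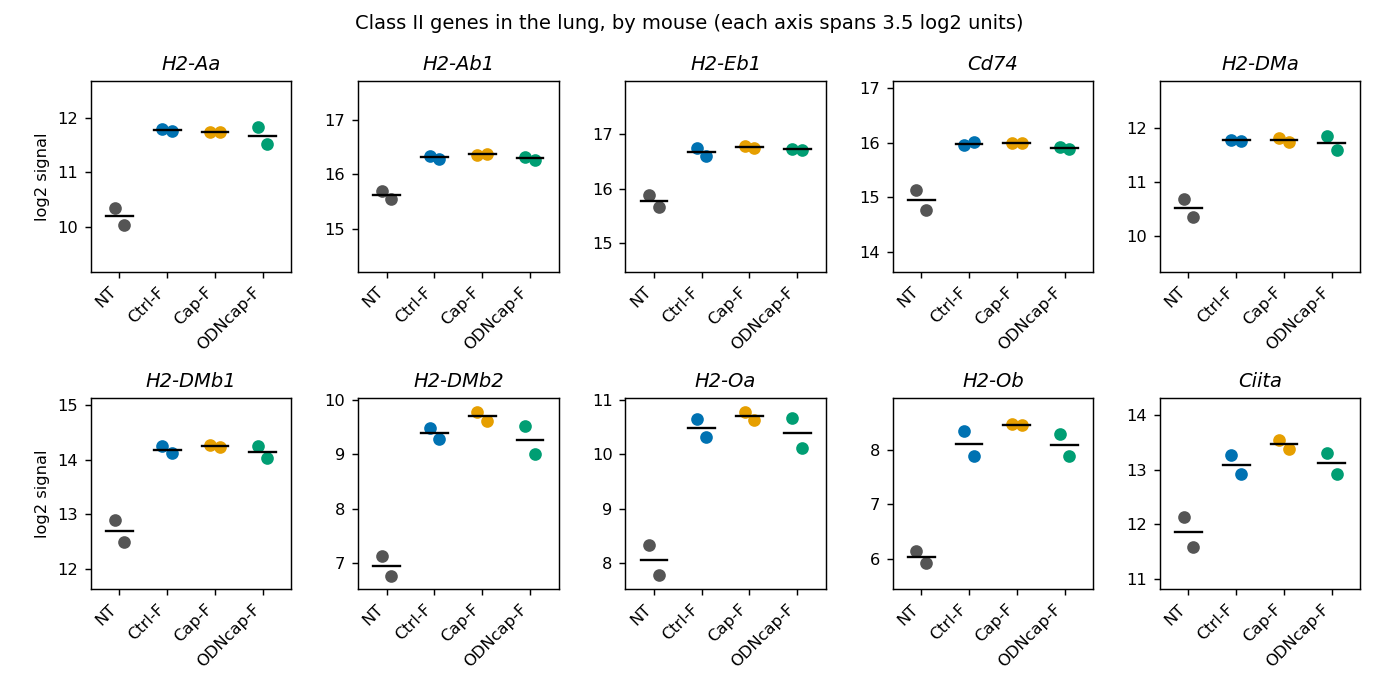
Log2 signal (vertical axis, quantile normalized) of the brightest probe of each of the 10 class II genes in the 4 groups. Each point is 1 mouse and each line the mean of 2 mice, and every panel spans 3.5 log2 units at its own level. In each panel the 2 NT mice lie below all 6 challenged mice.

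Among the chains that hold the peptide, H2-Aa, the alpha chain of I-A, stood at 10.35 and 10.03 in the NT mice. It reached 11.79 and 11.76 in Ctrl-F, 11.74 and 11.73 in Cap-F, and 11.82 and 11.53 in ODNcap-F. The ODNcap-F mice spanned the other challenged mice, and every challenged mouse lay more than 1 unit above the NT mice. The log2 fold change of H2-Aa was 1.59, 1.55 and 1.49 (SE 0.14, limma adjusted p = 0.000265, 0.000352 and 0.000381).

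H2-Ab1, the beta chain of I-A, read 15.70 and 15.55 in the NT mice, 16.34 and 16.28 in Ctrl-F, 16.35 and 16.37 in Cap-F, and 16.32 and 16.27 in ODNcap-F. Its brightest probe changed least of the members, by 0.69, 0.74 and 0.67 on the log2 scale (SE 0.076, limma adjusted p = 0.000605, 0.000547 and 0.00073). With 75th percentile scaling the change was 0.98, 0.96 and 0.97. H2-Eb1, the beta chain of I-E, read 15.89 and 15.67 in the NT mice, 16.75 and 16.60 in Ctrl-F, 16.79 and 16.75 in Cap-F, and 16.74 and 16.71 in ODNcap-F. Both beta chains separated cleanly from NT although the steps of these probes were under 2-fold. For H2-Eb1 the log2 fold change was 0.89, 0.99 and 0.95 (SE 0.099, limma adjusted p = 0.000622, 0.000502 and 0.000553), and with 75th percentile scaling it was 1.17, 1.22 and 1.23.

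Cd74, on chromosome 18 from 60803849 to 60812652, encodes the chaperone that also escorts class II to the endosome. Its signal was at 15.13 and 14.76 in NT. It was at 15.95 and 16.00 in Ctrl-F, at 16.00 in each Cap-F mouse, and at 15.92 and 15.89 in ODNcap-F. The challenged mice lay between 15.89 and 16.00, and the widest gap within a group lay between the NT mice. Its fold change was 2.04, 2.08 and 1.95 (limma adjusted p = 0.000866, 0.000922 and 0.00122). On the log2 scale it was 1.03, 1.05 and 0.96, and with 75th percentile scaling 1.37, 1.29 and 1.27.

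Of the loading dimer H2-M, the alpha chain H2-DMa was at 10.70 and 10.36 in the NT mice, 11.77 and 11.76 in Ctrl-F, 11.80 and 11.73 in Cap-F, and 11.85 and 11.58 in ODNcap-F. Its log2 fold change was 1.24, 1.24 and 1.18 (SE 0.14, limma adjusted p = 0.000645, 0.000751 and 0.000826). The beta chain H2-DMb1 was at 12.90 and 12.49 in the NT mice, 14.25 and 14.12 in Ctrl-F, 14.28 and 14.23 in Cap-F, and 14.25 and 14.04 in ODNcap-F. Like H2-DMa it rose by a similar step under each feed, at log2 fold changes of 1.49, 1.56 and 1.45 (SE 0.15, limma adjusted p = 0.000467, 0.000469 and 0.000568).

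The second beta chain, H2-DMb2, was at 7.13 and 6.78 in the NT mice, 9.49 and 9.29 in Ctrl-F, 9.79 and 9.61 in Cap-F, and 9.53 and 9.01 in ODNcap-F. The fold change was 5.42, 6.72 and 4.99 (limma adjusted p = 0.00023, 0.000185 and 0.000311). H2-DMb1 and H2-DMb2 are close paralogs, and how far their probes cross-hybridize could not be checked because the files used here hold no probe sequences.

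The H2-O chains, which restrain H2-M, also rose over 4-fold. H2-Oa was at 8.33 and 7.79 in the NT mice, 10.65 and 10.32 in Ctrl-F, 10.77 and 10.64 in Cap-F, and 10.66 and 10.12 in ODNcap-F. That is a log2 fold change of 2.43, 2.64 and 2.33 (SE 0.25, limma adjusted p = 0.000488, 0.000425 and 0.000623). By their brightest probes, H2-DMb2 and H2-Oa had the largest fold changes of the members in each comparison with NT, with little between them. H2-DMb2 led in Ctrl-F and Cap-F and H2-Oa in ODNcap-F, but with normexp background correction H2-Oa led in all 3, and with the deposited log2 values H2-DMb2 did. H2-Ob was at 6.14 and 5.91 in the NT mice, 8.34 and 7.88 in Ctrl-F, 8.48 and 8.44 in Cap-F, and 8.28 and 7.89 in ODNcap-F. No group overlapped NT for H2-Ob, and its fold change was 4.24, 5.40 and 4.17 (limma adjusted p = 0.000335, 0.000237 and 0.000394). With normexp background correction the fold change of H2-Ob was 2.67, 3.31 and 2.65, still called.

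Ciita, the transactivator, was at 12.13 and 11.58 in the NT mice, 13.27 and 12.92 in Ctrl-F, 13.55 and 13.39 in Cap-F, and 13.31 and 12.93 in ODNcap-F. Its NT mice stood far apart, and its adjusted p-values were the largest of the 10. The log2 fold change of Ciita was 1.24, 1.62 and 1.27 (SE 0.23, limma adjusted p = 0.00474, 0.00189 and 0.00455).

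Genes with several probes rose on each of them. All 15 probes of the members were called higher under each feed, where 26.5%, 24% and 25.2% of all probes were. The size depended on the probe for H2-Ab1. Its brightest pair of probes gave log2 fold changes between 0.59 and 0.74, the third probe gave 1.10, 1.21 and 1.08, and the fourth gave 1.36, 1.47 and 1.28, or 2.57-fold, 2.77-fold and 2.43-fold. The statement that H2-Ab1 rose by under 2-fold therefore holds for its 2 brightest probes and not for the others. The probes of Ciita were close, with 1.18, 1.50 and 1.16 on the dimmer one. The dimmer probe of H2-Ob gave 2.90, 3.19 and 2.83, above the values of every brightest probe. It was well above background on only 1 of 2 NT arrays, so the size of these values is uncertain. This probe passed the filter through the challenged groups, where it was high, so its calls add no support.

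**Figure D2:**
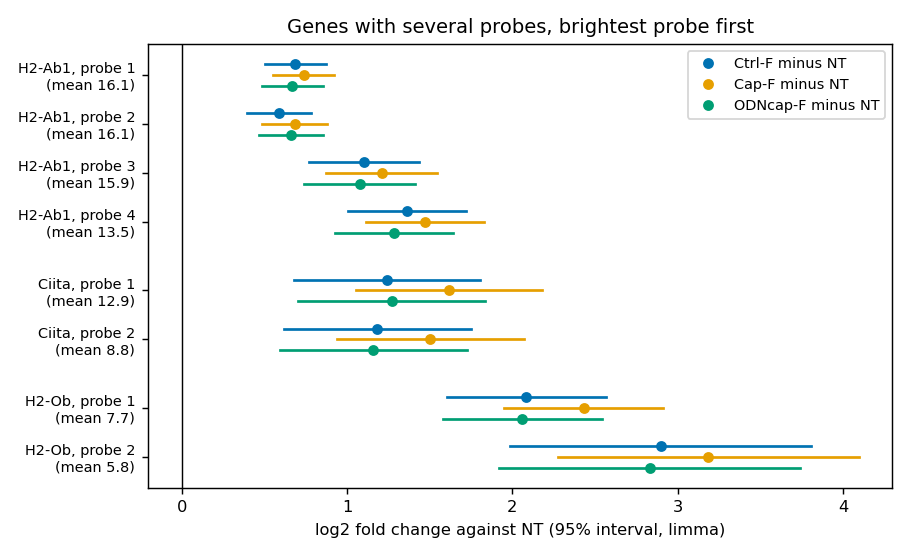
Log2 fold change against NT (horizontal axis) for each probe of H2-Ab1, Ciita and H2-Ob, with the mean log2 signal of the probe in its label. Points are limma estimates with 95% intervals, in 3 colors for Ctrl-F, Cap-F and ODNcap-F. Every interval lies above 0, and the 4 probes of H2-Ab1 spread from 0.59 to 1.47.

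Between the feeds no member passed the test. For ODNcap-F against Ctrl-F the log2 fold changes lay between -0.12 and 0.05 with a median of -0.04, and limma adjusted p-values lay between 0.923 and 0.99. For ODNcap-F against Cap-F they lay between -0.43 and -0.04 with a median of -0.10 and adjusted p-values between 0.441 and 0.907. For Cap-F against Ctrl-F they lay between -0.04 and 0.37 with a median of 0.08 and adjusted p-values between 0.427 and 0.995. The count of members called was also 0 in each of the 3 at an unadjusted p under 0.05 and by the local-pooled-error test. Over all probes, limma called 0% for ODNcap-F against Ctrl-F and 0.00269%, or 1 probe, for each of the comparisons with Cap-F. In the same order of comparisons, an unadjusted p in limma called 2497, 4810 and 6022 of 37116 probes. The local-pooled-error test called 269, 270 and 478. At such shares, 0 of 10 called says little about the members.

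These missed calls leave room for differences. The 95% intervals of the members spanned -0.72 to 0.59 for ODNcap-F against Ctrl-F, -0.94 to 0.30 for ODNcap-F against Cap-F and -0.40 to 0.94 for Cap-F against Ctrl-F, on the log2 scale. They were narrowest for H2-Ab1 and H2-Eb1 and widest for H2-Oa and Ciita.

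The ODNcap-F means were lower than the Cap-F means in all 10 members, and in 6 the mice of the 2 groups did not overlap, where 23.4% of all probes were lower without overlap. The Cap-F means were higher than those of Ctrl-F in 9 members, 5 of them without overlap, against 24.1% of all probes. H2-DMb2 differed most between ODNcap-F and Cap-F, by -0.43 (95% interval -0.94 to 0.07, limma adjusted p = 0.441). Ciita differed most between Cap-F and Ctrl-F, by 0.37 (95% interval -0.19 to 0.94), with 13.55 and 13.39 in Cap-F above 13.27 and 12.92 in Ctrl-F. With arrays scaled to their 75th percentile in place of quantile normalization, H2-Ab1, H2-Eb1 and H2-DMb1 turned slightly above 0 for ODNcap-F against Cap-F, and H2-Ab1, H2-DMa, H2-DMb1 and Cd74 below 0 for Cap-F against Ctrl-F. These 2 comparisons share the Cap-F mice.

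**Figure D3:**
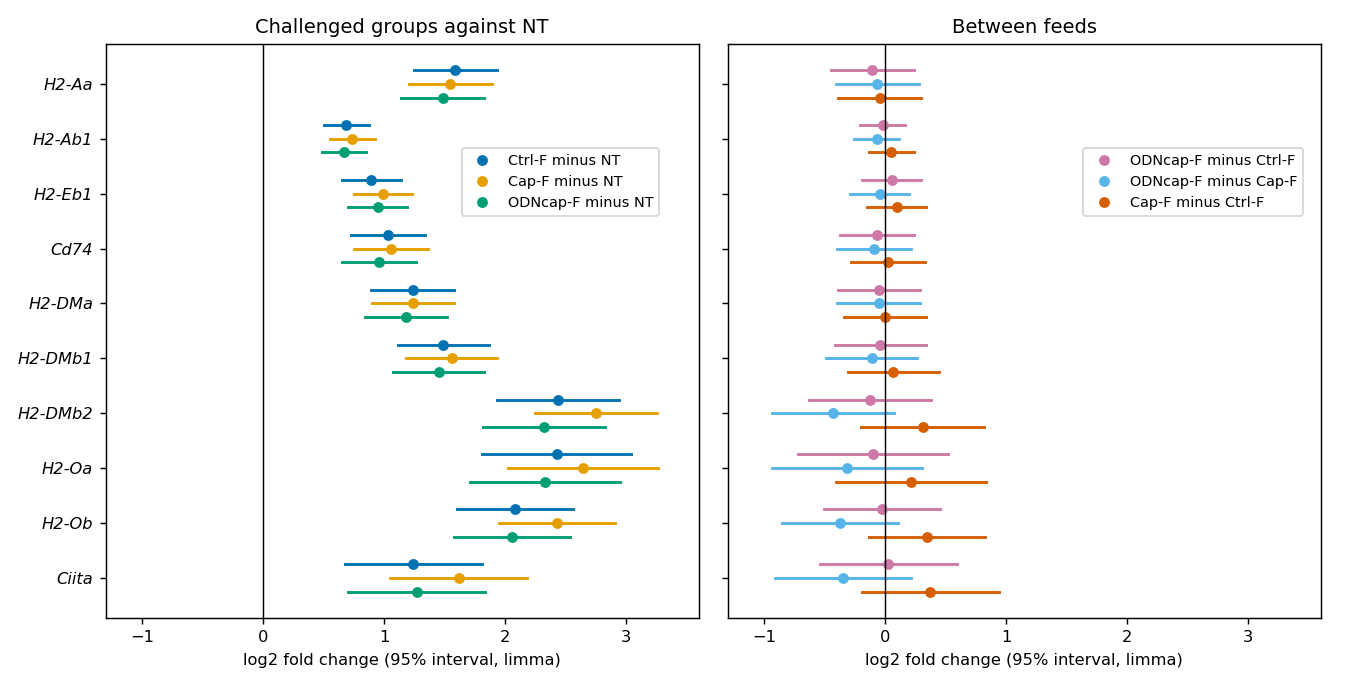
Log2 fold changes (horizontal axis) of the 10 members from limma with 95% intervals, for the challenged groups against NT on the left and between feeds on the right. All intervals on the left lie above 0 and all on the right cross 0.

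Within a group, most members were higher in the same mouse. NT mouse 2 had the lowest value of all 8 mice for 10 of 10 members. NT mouse 1 exceeded it by 0.146 to 0.548 with a median of 0.342, while 49.2% of all probes were higher in mouse 1. In ODNcap-F, mouse 1 was above mouse 2 for 10 of 10 members with a median of 0.281, against 52.1% of all probes. The median gap was smaller in Ctrl-F, at 0.139, and in Cap-F, at 0.0441. There mouse 1 was above for 9 of 10 members in each, against 49.7% and 54.6% of all probes. Mouse 1 was thus the higher one for most members in each of the 4 groups. Among the 6 challenged mice, ODNcap-F mouse 2 was the lowest for 7 members and Ctrl-F mouse 2 for 3, and Cap-F mouse 1 was the highest for 6. The members are measured on the same arrays, so these counts are not independent.

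The remaining class II gene that the array measured, H2-Eb2, which is a beta chain gene of the same region and not among the 10, moved further than any member. It read 4.20 and 3.91 in the NT mice, 8.75 and 8.54 in Ctrl-F, 8.97 and 8.79 in Cap-F, and 8.68 and 8.52 in ODNcap-F. This is a log2 fold change of 4.59, 4.83 and 4.54 (limma adjusted p = 9.33e-06, 9.68e-06 and 1.02e-05). Its NT values were close to the lowest log2 signal counted as well above background, 3.61 to 4.18 over the arrays, and with normexp background correction its log2 fold change was 2.50, 2.69 and 2.49. A second, dimmer probe of H2-Eb2 was not well above background in NT and gave at least 5.83-fold, 4.42-fold and 5.23-fold. H2-Ea, the alpha partner of H2-Eb1, matched no probe.

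The enzymes that prepare antigen and trim the invariant chain rose together with the class II genes. All 8 of the list were called higher under each feed, where 26.5%, 24% and 25.2% of all probes were. The median log2 fold changes of the list were 1.65, 1.44 and 1.49. In Ctrl-F, Ctss (cathepsin S, which makes the last cuts in the invariant chain) rose by 2.11, from 14.39 and 14.36 in NT to 16.44 and 16.53. Ctsz (cathepsin Z) rose by 2.12, Ifi30 (the lysosomal thiol reductase GILT) by 2.03 and Lgmn (asparaginyl endopeptidase) by 1.81. Ctsl and Ctsb, cathepsins L and B, rose by 1.49 and 1.40. Ctsd and Ctsh, cathepsins D and H, rose less, by 0.66 and 0.39. The limma adjusted p-values of these 8 in Ctrl-F were at most 0.00811.

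The factors that bind class II promoters did not rise as a list. In Ctrl-F, 2 of the 7 were called higher and 3 lower, in Cap-F 1 and 2, and with ODNcap-F 1 and 3, with median log2 fold changes of -0.10, 0.07 and -0.10. These shares of 7 genes lie near the shares of all probes called higher (26.5%, 24% and 25.2%) and lower (34.5%, 31.9% and 33.8%). Rfx5, a subunit of the X box factor, rose by 0.63, 0.74 and 0.55. Creb1, which binds the neighboring X2 box, fell by 0.53, 0.36 and 0.51. In Ctrl-F, Rfxap, another subunit of the X box factor, rose by 0.27 (limma adjusted p = 0.0206), while Nfyb and Nfyc of the Y box factor fell by 0.24 each. The call on Nfyc in Ctrl-F was lost with 75th percentile scaling and that on Nfyb with normexp. Rfxank and Nfya were not called in Ctrl-F, at -0.10 and -0.01.

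Genes that induce Ciita or govern the turnover of class II went both ways, with 4 of 8 called higher and 4 lower under each feed, where 26.5%, 24% and 25.2% of all probes were called higher and 34.5%, 31.9% and 33.8% lower. In Ctrl-F, Ifng, the inducer of Ciita in many cells, rose by 1.02 and Ifngr2 by 1.19, while Ifngr1 fell by 0.54 and Irf1 by 0.48. Socs1, an inhibitor of interferon signaling, rose by 2.56, from 8.73 and 8.77 in NT to 11.21 and 11.40 in Ctrl-F. Marchf1 and Marchf8, ubiquitin ligases that send class II from the surface to degradation, fell by 0.83 and 0.60. Cd83, which shields class II from Marchf1, rose by 2.86. Each of these 8 had a limma adjusted p of at most 0.002 in Ctrl-F. The call on Irf1 in Cap-F was lost with 75th percentile scaling.

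Of 7 genes in the co-stimulation list, 6 were called higher under each feed, where 26.5%, 24% and 25.2% of all probes were. The median log2 fold changes of the list were 0.85, 0.99 and 0.88. The list also holds Pdcd1lg2 (PD-L2) and Cd274, ligands of an inhibitory receptor on T cells, which rose by 5.87 and 0.85 in Ctrl-F. Cd86 rose by 1.71 in Ctrl-F, Cd40 by 0.77 and Cd80 by 0.31. Pdcd1lg2 went from 5.17 and 4.93 in NT to 10.91 and 10.74 in ODNcap-F. Tnfsf4 (OX40 ligand) was not well above background in NT and rose at least 3.11-fold in Ctrl-F. Icosl was not called, at -0.43 in Ctrl-F.

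The class I pathway, through which peptides from inside the cell are shown to CD8 T cells, moved less. Of its 10 genes 7 were called higher and none lower under each feed, with median log2 fold changes of 0.38, 0.41 and 0.37. Of all probes, 26.5%, 24% and 25.2% were called higher and 34.5%, 31.9% and 33.8% lower. In Ctrl-F the immunoproteasome subunits Psmb8 and Psmb9 rose by 1.24 and 0.91, the peptide transporter Tap1 by 1.2 and Nlrc5, the class I counterpart of Ciita, by 1.01. H2-K1, a class I heavy chain, rose by 0.39. H2-D1 and B2m were not called, at 0.17 and -0.08, but with 75th percentile scaling H2-D1 was called higher in each of the 3 comparisons and B2m in ODNcap-F. The difference between the class I and class II lists was not tested.

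**Figure D4:**
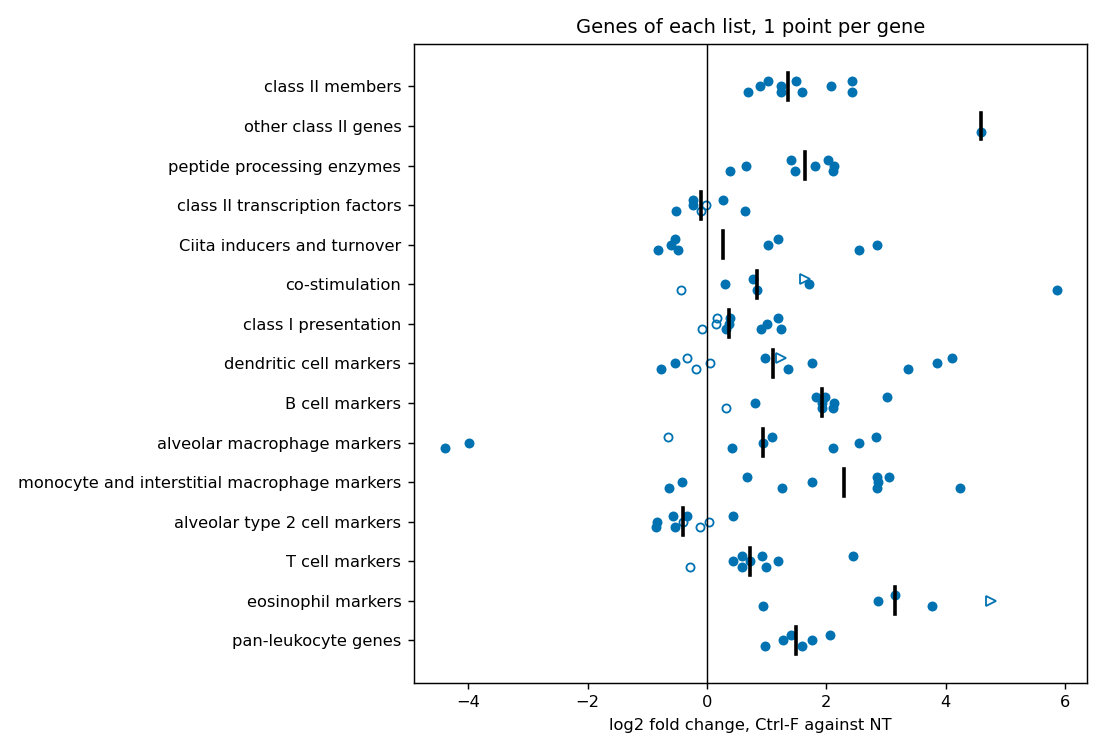
Log2 fold change of Ctrl-F against NT (horizontal axis) for each gene of the class II members and of 14 other lists. Each point is 1 gene, filled where limma called it, open where not, a triangle where the value is a lower bound, and the vertical mark is the list's median. All class II members, processing enzymes and pan-leukocyte genes lie to the right of 0, while the class II transcription factors lie around it.

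Among the cells that carry class II, most markers of B cells and of monocytes and interstitial macrophages were called higher. Dendritic cell markers were more mixed. Of all probes, 26.5%, 24% and 25.2% were called higher and 34.5%, 31.9% and 33.8% lower. Of 9 B cell markers, 8, 9 and 8 were called higher, with medians of 1.94, 2.12 and 1.86. Ms4a1 (CD20) was at 11.01 and 10.63 in NT and at 13.16 and 12.70 in Ctrl-F. Of 10 markers of monocytes and interstitial macrophages 8 were called higher under each feed and 2, 1 and 1 lower, with medians of 2.30, 2.31 and 2.26. In Ctrl-F, C1qa rose by 2.86 and Ms4a7 by 4.24, while Cx3cr1 fell by 0.63 and Ly6c2 by 0.41. The call on Ly6c2 was lost in Ctrl-F and Cap-F with 75th percentile scaling. Of 12 dendritic cell markers, 7 were called higher under each feed and 2, 3 and 2 lower, with medians of 1.16 (1.10 with Xcr1, not well above background in NT, at its lower bound), 1.11 and 1.02. In Ctrl-F, Itgax (CD11c), which macrophages carry as well, rose by 3.37 and Batf3 by 3.86, while Zbtb46 and Siglech fell by 0.77 and 0.53. The call on Siglech was lost with 75th percentile scaling.

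Of 9 alveolar macrophage markers, 6, 5 and 5 were called higher, and 2 were called lower. Those 2 were Marco and Fabp1, at -3.98 and -4.40 in Ctrl-F, and the medians were 0.95, 1.06 and 0.87. Of all probes, 26.5%, 24% and 25.2% were called higher and 34.5%, 31.9% and 33.8% lower. All 6 pan-leukocyte genes, such as Ptprc (CD45) and Cd53, were called higher under each feed, by 0.97 to 2.06 in Ctrl-F. All 5 eosinophil markers were called higher, and Epx (eosinophil peroxidase), not well above background in NT, rose at least 27.2-fold in Ctrl-F. Siglecf stands in both the eosinophil and the alveolar macrophage list, and in Ctrl-F and ODNcap-F its value was the median of the latter. Of 9 T cell markers 8 were called higher under each feed, with medians of 0.73, 1.06 and 0.71.

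Alveolar type 2 cell markers, which mark the tissue as lung, did not rise with the members. Of 9, 1 was called higher and 5, 6 and 6 lower, with medians of -0.40, -0.45 and -0.46, where 34.5%, 31.9% and 33.8% of all probes were called lower. Sftpc (surfactant protein C) was at 17.60 in both NT mice and at 17.64 in both Ctrl-F mice and was not called. These values lie near the top of the range, where quantile normalization gives nearly the same values on every array. Its lack of a call therefore says little. With 75th percentile scaling the medians were -0.19, -0.22 and -0.13 and calls were lost on Sftpb, Lamp3 and Abca3 in Ctrl-F, on Lamp3 in Cap-F and on Sftpb and Lamp3 in ODNcap-F. Lamp3 also turned sign in Ctrl-F and ODNcap-F, and Sftpa1 became called in both.

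Members, pan-leukocyte genes and B cell markers had similar averages mouse by mouse. Centered on each gene's mean over the 8 mice, the members averaged -0.98 and -1.33 in the NT mice, 0.44 and 0.27 in Ctrl-F, 0.53 and 0.46 in Cap-F, and 0.44 and 0.17 in ODNcap-F. The 6 pan-leukocyte genes averaged -0.98 and -1.31 in the NT mice, 0.46 and 0.27 in Ctrl-F, 0.50 and 0.50 in Cap-F, and 0.38 and 0.17 in ODNcap-F. The B cell markers averaged -1.13 and -1.61, 0.57 and 0.26, 0.66 and 0.62, and 0.40 and 0.23 in the same order. In all 3 lists NT mouse 2 was the lowest of the 8 mice and ODNcap-F mouse 2 the lowest of the challenged mice. The same held for the processing enzymes and for the class I, co-stimulation, T cell, eosinophil, and monocyte and interstitial macrophage lists. It is therefore not particular to these 3. The order was not the same in every list: ODNcap-F mouse 1 lay above Ctrl-F mouse 1 in the members and below it in the pan-leukocyte genes and B cell markers. The dendritic cell markers were lowest in NT mouse 1, and the alveolar macrophage markers of NT mouse 1, at 0.033, lay above those of 4 challenged mice. The class II transcription factors stayed between -0.05 and 0.07. The part of leukocyte number in the rise of the class II genes, and in the differences between mice of a group, was not tested.

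**Figure D5:**
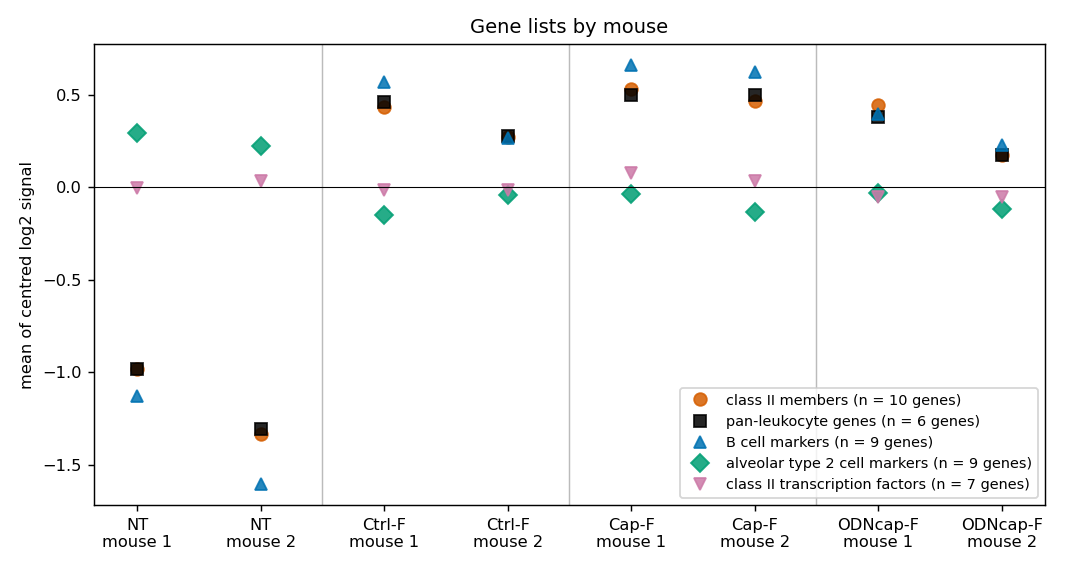
Mean of centered log2 signal (vertical axis) in each of the 8 mice for the class II members, the pan-leukocyte genes, the B cell markers, the alveolar type 2 cell markers and the class II transcription factors. Each point is the mean over a list's genes on 1 array. Members and pan-leukocyte genes run together, from -1.33 and -1.31 in NT mouse 2 to 0.53 and 0.50 in Cap-F mouse 1, while the transcription factors stay near 0.

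Between the feeds none of the genes in these lists was called in limma. Of all 37116 probes, 0, 1 and 1 were called for ODNcap-F against Ctrl-F, ODNcap-F against Cap-F and Cap-F against Ctrl-F. The lack of calls therefore says little about the lists. For ODNcap-F against Cap-F, where the members had a median of -0.10, the pan-leukocyte genes had -0.24 and the B cell markers -0.29. For ODNcap-F against Ctrl-F the medians of the members, the pan-leukocyte genes and the B cell markers were -0.04, -0.07 and -0.09. The same 3 medians were 0.08, 0.13 and 0.18 in Cap-F against Ctrl-F.

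The genes whose pattern over the 8 mice was nearest to the mean of H2-Aa, H2-Ab1, H2-Eb1 and Cd74 were sought among 16564 named genes outside the 10. Likeness was the root mean square of the differences in centered log2 signal, for a pattern whose own size was 0.461. The nearest 8 were Cd28, a co-stimulatory receptor of T cells, at 0.0451, then Fam107b at 0.0471, Plekho2 at 0.0517, Wdr43 at 0.0542, Sytl1 at 0.055, Gm5779 at 0.0554, Gpr132, a G protein-coupled receptor of leukocytes, at 0.0576, and B4galnt1, a ganglioside synthase, at 0.0579. Their log2 fold changes against NT lay between 0.92 and 1.15, and all were called. The measure follows the step from NT to the challenged mice, which many genes share.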

How the data were processed

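Lung RNA of 8 mice was measured on Agilent SurePrint G3 Mouse arrays on 1 slide. Scanner files deposited by the authors (Agilent Feature Extraction 11.0) give a background-subtracted intensity per spot, not normalized between arrays. The authors also deposited quantile-normalized log2 values of 32312 probes. Control spots were left out, 792 flagged spot values were set to missing, and log2 intensities of 59305 spots were averaged into 56605 probes and quantile normalized. Probes had to be well above background in both mice of some group, which left 37116 (61.3% to 65% of probes were so on single arrays, and no spot was saturated). The scanner files hold accessions, and a RefSeq table (GRCm38.p6) named 58.3% of the probes. The files' headers name another build, so no coordinates were taken from them.

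Groups were compared in 1 limma fit of all 8 arrays (limma 3.58.1, R 4.3.3, statmod 1.5.0) without covariates, with 4 residual and 1.96 prior degrees of freedom and Benjamini-Hochberg adjustment over all kept probes. Standard errors and 95% intervals come from this fit. A lower bound sets a group's mean against, on each NT array, the lowest signal well above background. The paper's local-pooled-error test was rebuilt (100 bins, spline of 10 degrees of freedom) as an alternative. Whether replicate numbers pair the mice is not given by the sample labels. Differences between mice 1 and 2 correlated between groups by -0.0123 to 0.161. These low values do not settle it, because mouse 1 was the higher one for at least 9 of 10 members in every group. The main fit left the replicate number out, and a replicate block was an alternative. The genes named are the members, the genes of the lists, and the 8 genes most like the members. The members and lists were chosen with earlier results of these data known. 1 gene of the list on Ciita induction is not reported here, and the list was counted without it. Alternatives were 75th percentile scaling, normexp with an offset of 50, the deposited log2 values, 2 other filters, the replicate block, an intensity trend, 2-group fits, each array left out, the mean of a gene's probes, a fold over 2 and an unadjusted p. Protein and fecal data were not analysed here.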

Additional observations from a re-analysis of the deposited data

How the results depend on the processing

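All 10 members were called higher than NT in each challenged group under every alternative except the rule that also required a 2-fold change, which called 8, 8 and 7, and no member was called between feeds under any. The largest limma adjusted p against NT were 0.0291, 0.0137 and 0.0265, for Ciita without Ctrl-F mouse 1, Cap-F mouse 1 and ODNcap-F mouse 1. With the replicate block the counts were 10, 10 and 10 against NT and 0, 0 and 0 between feeds. Where 1 mouse of a group was left out, the other was assumed to vary like the remaining groups. With 1 mouse left out, the median log2 fold change of the members ranged from 1.17 to 1.61 in Ctrl-F, 1.35 to 1.74 in Cap-F and 1.13 to 1.59 in ODNcap-F, lowest without NT mouse 2 and highest without NT mouse 1.

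Directions between feeds turned for several members, none of them called, and the cause was not tested. With 75th percentile scaling, Ciita was at -0.0049 for ODNcap-F against Ctrl-F. For ODNcap-F against Cap-F, H2-Ab1 was at 0.0070, H2-Eb1 at 0.0081 and H2-DMb1 at 0.0068. For Cap-F against Ctrl-F, H2-Ab1 was at -0.020, H2-DMa at -0.078, H2-DMb1 at -0.071 and Cd74 at -0.080. With normexp, H2-Ab1 was at 0.12 for ODNcap-F against Ctrl-F and H2-DMa at -0.027 for Cap-F against Ctrl-F, and with the deposited table the latter was -0.00046. With 1 mouse left out, ODNcap-F against Ctrl-F ranged from -0.25 to 0.045 for H2-Aa, -0.046 to 0.011 for H2-Ab1, -0.02 to 0.13 for H2-Eb1, -0.18 to 0.082 for H2-DMa, -0.15 to 0.070 for H2-DMb1, -0.38 to 0.14 for H2-DMb2, -0.37 to 0.17 for H2-Oa, -0.25 to 0.20 for H2-Ob and -0.16 to 0.22 for Ciita. ODNcap-F against Cap-F ranged from -0.21 to 0.087 for H2-Aa and -0.19 to 0.079 for H2-DMa, and Cap-F against Ctrl-F from -0.037 to 0.041 for H2-DMa and -0.0032 to 0.052 for Cd74. The median for ODNcap-F against Ctrl-F ranged from -0.17 without ODNcap-F mouse 1 to 0.08 without ODNcap-F mouse 2. Over all probes, the local-pooled-error test called 269, 270 and 478 probes between feeds (ODNcap-F against Ctrl-F, ODNcap-F against Cap-F, Cap-F against Ctrl-F), and an unadjusted p 2497, 4810 and 6022, where limma called 0, 1 and 1. Of the class II genes, H2-Ob and H2-Eb2 had the fold changes that depended most on the background correction. NT values of H2-Eb2 were close to the lowest signal counted as well above background. The brightest probe of H2-Ob was well above background on all 8 arrays. Why these fold changes moved was not tested.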
